A study of Mus musculus with 6 samples.

Results

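In 2 of 3 libraries of GB2-treated RAW264.7 cells, 218 genes that had no count in any untreated library were present at 1 CPM or more, a level scaled to the total count of a library. The genes were chosen from the 28836 genes of the table by that rule, namely a count of 0 in untreated replicates 1, 2 and 3 and at least 1 CPM in both GB2-treated replicate 2 and GB2-treated replicate 3. CPM is the estimated count of a gene divided by the summed count of the library and multiplied by 1000000. Of the 218 genes, 205 were annotated as protein coding. They are led by genes known from liver, heart and skeletal muscle, stomach, intestine and exocrine pancreas. The rule used no value of GB2-treated replicate 1, but it was set with earlier results of these data known. In that replicate 200 of the 218 genes had a count of 0, which is therefore a description and not an independent finding.

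RAW264.7 is a mouse macrophage-like line established from a virus-induced tumour of a male mouse. Poly(A) RNA of this line was read in 3 untreated and 3 GB2-treated libraries, and the labels name no dose, time or genetic change. GB2 is a prodrug in which a disulfide bond ties artesunate, used as an inhibitor of the receptor TREM2, to MSA-2, which activates the DNA-sensing adaptor STING. The study describes culture with tumour cells in a transwell chamber and states a dose and time of GB2 for it. Whether the untreated cells shared that culture was not stated in the sources used here. The study describes its replicates as biological, and the labels do not say whether they were separate cultures. Summed counts were 73077089, 76821423 and 77337345 in the untreated and 71654097, 62727181 and 62660734 in the GB2-treated libraries, so that 1 count was worth 0.0129 to 0.0160 CPM. The 15 listed macrophage genes were present in all 6 libraries, at 42.9 CPM or more each. Their summed level was 36415, 35520 and 36407 CPM in the untreated and 18734, 16623 and 17371 CPM in the GB2-treated replicates 1, 2 and 3. The 4 Y-linked genes in the table summed to 81.1 to 106 CPM in every library. Xist, the RNA that silences one X chromosome in female cells, lay between 0 and 0.128 CPM in every library.

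Organs divide their work through secreted and contractile proteins that few other cells make. Hepatocytes secrete albumin, apolipoproteins, clotting factors and complement into plasma and carry the enzymes of urea synthesis and drug oxidation. Cardiomyocytes and skeletal fibres build sarcomeres from tissue-specific actins, myosins and troponins, the stomach lines itself with mucins, trefoil peptides and gastrokines around glands of parietal and chief cells, and the pancreas releases digestive enzymes with their cofactors. Such transcripts are therefore used as markers of these organs.

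The plasma protein genes Alb, Ahsg and Serpina3k marked the set. Alb, which encodes albumin (ENSMUSG00000029368, mm10 chromosome 5, 90460897 to 90476602, plus strand), had counts of 0, 0 and 0 in the untreated replicates and 0, 50586 and 50101 in GB2-treated replicates 1, 2 and 3. Ahsg, encoding the plasma glycoprotein fetuin-A (chromosome 16, 22891277 to 22899449), had 0, 3778 and 3398 counts in the treated replicates. Serpina3k, encoding a plasma serine protease inhibitor (chromosome 12, 104338486 to 104346144), had 0, 4875 and 4866 counts. All 3 genes were thus at 0 in 4 libraries and high in the other 2, which differed by 1.01-fold for Alb, 1.11-fold for Ahsg and 1.00-fold for Serpina3k. A count of 0 in GB2-treated replicate 1 allows a level of up to about 0.0419 CPM, against 806 and 800 CPM for Alb in replicates 2 and 3. That limit was set at 3 counts, an approximate 95% bound for counting error only. It may be too low, since the counts were often multiples of 4.

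Many hepatocyte genes are known to be read from promoters bound by HNF1, a liver-enriched homeodomain factor whose palindromic site has the arm GTTAAT, a single spacer base and the arm's reverse complement, and the members' promoters were searched for it. RefSeq windows from 250 bases before to 50 after the start (GRCm38.p6) were found for 157 of the 218 genes. The arm GTTAAT, searched on both strands, stood in 28.4% of 67 windows of the liver genes in 17.9% of the members' 179 windows and in 7.10% of all 32851 windows. It was not particular to liver genes, since it stood in 5 of 20 intestine windows and 16.1% of 31 muscle windows, and in 0 of 11 windows of the Mup genes, which the liver also expresses. The whole palindrome, searched on both strands, stood in 0 of the members' 179 windows and in 3 of all windows. The letters TATAAA, read on the gene's own strand, stood in 20.9% of the liver, 9.68% of the muscle and 8.32% of all windows, and in 5 of 20 intestine and 3 of 6 stomach windows. The median ratio of observed to expected CpG was 0.206 in the liver, 0.153 in the intestine, 0.237 in the muscle and 0.384 in all windows. These matches describe letters and not bound sites. The 150 bases before the start are given for the 4 most abundant liver genes with the arm there, to show where it lies. Each line is read 5′ to 3′ on the gene's strand, with the arm in capitals. The arm reads GTTAAT for Alb and Serpina1e and its reverse complement, ATTAAC, for Vtn and Mug1. The stretches are chr5:90460720-90460869 (plus strand) for Alb, chr12:103956898-103957047 (minus) for Serpina1e, chr11:78498970-78499119 (plus) for Vtn and chr6:121838391-121838540 (plus) for Mug1. The arm began 32, 78, 112 and 73 bases before the RefSeq start, respectively. This start can differ from the bounds of the gene in the count data. The Alb window ends at 90460869 while the gene begins at 90460897, and the Serpina1e window lies inside the gene (103946931 to 103958975).
Alb: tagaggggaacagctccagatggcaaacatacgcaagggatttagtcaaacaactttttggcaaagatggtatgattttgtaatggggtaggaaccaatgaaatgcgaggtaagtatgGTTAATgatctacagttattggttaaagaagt
Serpina1e: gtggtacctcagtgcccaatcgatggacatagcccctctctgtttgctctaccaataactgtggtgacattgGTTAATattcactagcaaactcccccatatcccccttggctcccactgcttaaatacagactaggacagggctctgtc
Vtn: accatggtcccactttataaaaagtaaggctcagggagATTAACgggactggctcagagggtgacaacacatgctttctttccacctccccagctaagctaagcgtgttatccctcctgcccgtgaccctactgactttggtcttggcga
Mug1: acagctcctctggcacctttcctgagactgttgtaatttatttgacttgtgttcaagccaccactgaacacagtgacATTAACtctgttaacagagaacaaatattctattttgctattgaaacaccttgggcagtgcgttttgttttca

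The 218 genes took 0.353% of all counts in GB2-treated replicate 2 (95% exact binomial interval 0.352 to 0.354%) and 0.361% in replicate 3 (0.359 to 0.362%), intervals that cover counting error only. In GB2-treated replicate 1 they held 159 counts, or 0.000222% (0.000189 to 0.000259%), and in the untreated libraries 0 by the rule. The median gene stood at 4.42 CPM in replicate 2 and 4.12 CPM in replicate 3. In both libraries 49 genes reached 10 CPM, and 61 lay at or below 2 CPM in at least one of them. On the length-scaled FPKM, by which genes can be compared with each other, the highest members were Alb (323 and 325 FPKM in replicates 2 and 3), Tff1 (63.6 and 285), Gkn1 (86.6 and 143), Clps (211 and 9.91), Actc1 (85.9 and 115) and Mup7 (65.3 and 88.7). These genes are known from liver, stomach surface, pancreas and heart, and several of them differed widely between the libraries. Just inside the rule, with a lower level of 1.02 to 1.05 CPM, stood Apol10a, Slc30a10, Dhrs7c, Abca6 and Hand2os1. Just outside, at 0.957 to 0.989 CPM, stood Tff3, Ccn3, Apcs, Pdlim3 and Agxt, of which Tff3 is a goblet cell peptide and Apcs and Agxt are hepatocyte genes. Another 59 genes at 0 in untreated cells reached 1 CPM in replicate 2 only and 37 in replicate 3 only.

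**Figure D1:**
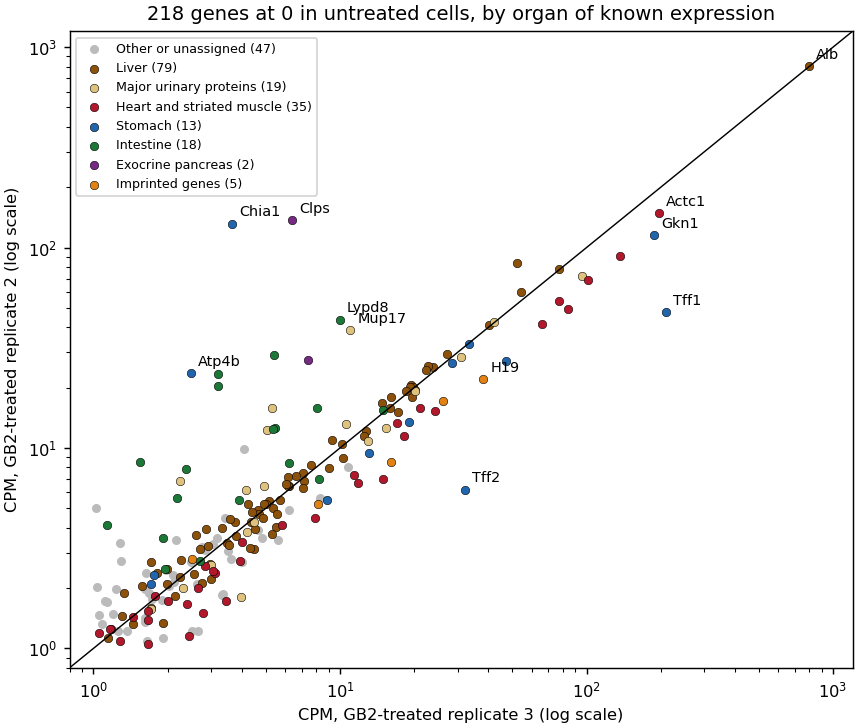
Level of each of the 218 genes in GB2-treated replicate 2 (vertical, CPM, log scale) against replicate 3 (horizontal, CPM, log scale), coloured by organ of known expression, with the line of equal level and the number of genes in parentheses. Liver genes follow the line up to Alb at 806 and 800 CPM, 31 of 35 muscle genes lie below it, and Chia1, Clps and 17 of 18 intestine genes lie above it.

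GB2-treated replicate 1 stood with the untreated libraries for these genes. Of the 18 genes above 0 there, Gm44292, an annotated gene of unknown function, was highest with 57 counts (0.795 CPM, against 1.23 and 1.26 CPM in replicates 2 and 3). It was the only member whose 3 treated values were of similar size. Itgb1bp2, encoding the striated muscle protein melusin, had 13, 126 and 167 counts in replicates 1, 2 and 3. Pparg, the lipid-sensing nuclear receptor of adipocytes and macrophages, had 10, 155 and 123 counts. Kng1 (kininogen), Plagl1 (an imprinted zinc finger factor), Dpt (the matrix protein dermatopontin) and Gstm7 (a glutathione transferase) had 8 counts each, and Myom2 (a sarcomere protein) and Adcy4 (an adenylyl cyclase) had 7 each. The other 9 genes had 2 to 4 counts, among them Myl2 with 4 against 3094 and 5270 and Tnnt2 with 2 against 4338 and 6366. A count above 0 in replicate 1 was seen for 8.26% of the members and for 22.3% of all 4933 genes that were at 0 in untreated cells. At 1 CPM or more, 2 of those 4933 genes stood in replicate 1, 277 in replicate 2 and 255 in replicate 3.

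The fit of all 3 GB2-treated against all 3 untreated libraries (edgeR quasi-likelihood test, FDR below 0.05 and at least 1 on the log2 scale) called 13.4% of 17124 genes higher. Only 3 members, Pparg, Itgb1bp2 and Gm44292, passed its filter on low counts, and all 3 were called higher. Without GB2-treated replicate 1, all 218 passed the filter and all 218 were called higher, beside 19.9% of all genes. Without the filter, 16 members were called higher (6.87% of all genes), and DESeq2's Wald test called 193 (14.1%). The rule used this contrast, so none of these counts says anything further about the genes.

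The genes were sorted by the organ or cell type they are known from. Of the 218, 124 stood on organ lists drawn up from general knowledge, and the others were placed, or left unplaced, after their names and values had been seen. Liver was assigned 79 genes, the Mup family 19, heart and skeletal muscle together 35, intestine 18, stomach 13, exocrine pancreas 2 and imprinted genes 5. A further 14 genes are known from several organs, 7 stood alone on other lists and 26 were left unassigned. Liver genes held 46.3% of the members' summed CPM in GB2-treated replicate 2 and 43.7% in replicate 3. Muscle genes held 16.3 and 23.3%, stomach genes 12.6 and 16.4%, Mup genes 8.53 and 7.78%, intestine genes 6.46 and 2.43% and pancreas genes 4.67 and 0.383%. Gene products annotated as extracellular made up 37.7% of the 204 members with annotation, against 10.1% of all 17157 annotated genes. The share was 49.4% among liver genes and 6.06% among muscle genes. In bulk RNA, fewer cells of a type and less RNA per cell cannot be told apart, and where these transcripts came from was not tested.

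The ratio of GB2-treated replicate 2 to replicate 3 differed by organ while the set as a whole was nearly level. Over all 218 genes the ratio of summed CPM was 0.978 (95% exact interval 0.973 to 0.984), and 108 genes were above 1 and 110 below. It was 1.04 (1.03 to 1.04) for liver, 0.683 (0.674 to 0.693) for muscle, 0.752 (0.741 to 0.764) for stomach, 2.60 (2.52 to 2.69) for intestine and 11.9 (11.1 to 12.8) for the 2 pancreas genes. The intervals of these organs did not overlap, but each rests on a single pair of libraries, and the spread of organ ratios between repeat libraries was not measured. Over single genes of the whole table, chi-square per degree of freedom, which counting error alone would put near 1, was 13.4 to 24.1 between untreated replicates. It was 91.7 between GB2-treated replicates 2 and 3. Counts in every library piled up at multiples of 4 (1044 genes had a count of 4 in replicate 2, against 513 with 3 and 359 with 5). With counts divided by 4 the intervals widened to 1.02 to 1.05 for liver, 0.665 to 0.702 for muscle, 0.729 to 0.776 for stomach and 2.44 to 2.77 for intestine, and still did not overlap. That division allows for a 4-fold excess only, less than was seen between untreated replicates. The lack of overlap is therefore no test of a difference between organs. The highest ratios of single genes were those of Chia1 (36.2), Clps (21.6), Atp4b (9.50), Reg3b (7.29) and Muc13 (6.39), and the lowest were those of Tff2 (0.194), Tff1 (0.226), Mup12 (0.455), Slc5a5 (0.461) and Myoz2 (0.466). All of the 5 highest are genes of the digestive tract or pancreas.

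**Figure D2:**
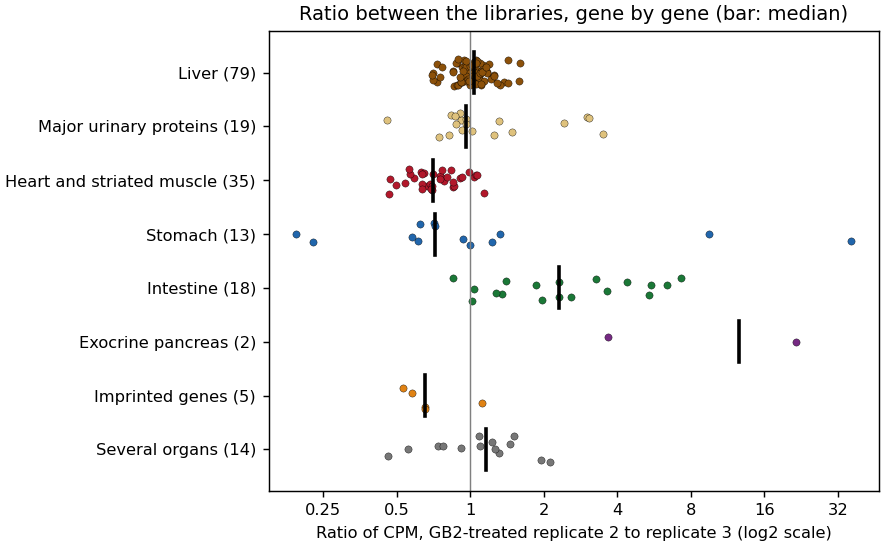
Ratio of CPM between GB2-treated replicate 2 and replicate 3 for each member (points, log2 scale), by organ of known expression, with the median as a black bar, the line of equal level in grey and the number of genes in parentheses. Liver genes gather near 1 (median 1.03), 31 of 35 muscle genes lie below 1, 17 of 18 intestine genes lie above 1, and stomach genes run from 0.194 to 36.2.

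Liver genes stayed near one proportion between the libraries. Of the 79 genes, 46 were above 1 and 33 below, 64 were within 1.25-fold, and the extremes were Ugt2b35 at 0.699 and Apoa1 at 1.59. The level was carried by Alb, with 49.4% of the liver CPM in replicate 2 and 50.7% in replicate 3, and the ratio without Alb was 1.06 (1.05 to 1.08). Apoa1, the main protein of high-density lipoprotein, had 0, 5230 and 3284 counts in GB2-treated replicates 1, 2 and 3, and is also made by the intestine. Serpina1e, an alpha-1-antitrypsin gene, had 0, 2562 and 2523 counts. Cps1, the entry enzyme of the urea cycle, had 0, 1846 and 1699 counts. These values are of the same size in replicates 2 and 3 apart from that of Apoa1.

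By role, the 13 cytochrome P450 genes summed to 86.6 and 83.1 CPM in replicates 2 and 3 (ratio 1.04, range 0.893 to 1.58), led by Cyp3a11, a drug oxidase, at 20.6 and 19.4 CPM. The 10 complement and lectin genes summed to 45.1 and 43.0 CPM (ratio 1.05), from Hc, complement component 5, at 10.5 and 10.2 CPM down to Mbl1, a mannose-binding lectin, at 1.13 and 1.15 CPM. The 6 genes of coagulation and fibrinolysis summed to 69.3 and 75.7 CPM (ratio 0.916), with Plg, plasminogen, at 19.3 and 18.5 CPM and F2, prothrombin, at 18.1 and 19.6 CPM. These 3 roles differed in their sums by less than 1.25-fold. The 6 genes of urea and amino acid metabolism gave 1.04, the 5 glucuronosyltransferases 1.04 and the 4 serpins 1.01. The 5 apolipoproteins gave 1.44, which Apoa1 carried, since Apoc3 stood at 1.06 and Apoc1 at 0.959. Genes of both zones of the liver lobule were among them, with the periportal Cps1 at a ratio of 1.09 and Cyp2f2 at 0.919 and the pericentral Cyp1a2 at 0.958 and Cyp2c29 at 0.989.

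The Mup genes encode major urinary proteins, small lipocalins that the mouse liver secretes in large amounts and that carry pheromones in urine. All 19 lay in one stretch of chromosome 4, from 60066469 to 62087342 (mm10). Mup7, the highest, had 0, 4504 and 6034 counts in GB2-treated replicates 1, 2 and 3, Mup3 had 0, 2680 and 2632, and Mup20 had 0, 1778 and 1936. Mup17 had 0, 2421 and 689 counts. All 19 were at 0 in replicate 1, and their summed ratio was 1.07 (1.05 to 1.10) while their median was 0.959. Mup17, Mup-ps19, Mup19 and Mup15 had ratios of 2.43 to 3.51 and a summed ratio of 3.12 (2.94 to 3.31), whereas the other 15 had a summed ratio of 0.886 (0.866 to 0.906). The genes are near-identical copies, and the assignment of reads to one copy is uncertain, so the values of single Mup genes are less sure than their sum.

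Muscle genes were lower in GB2-treated replicate 2 than in replicate 3 almost throughout. Actc1, cardiac alpha-actin (chromosome 2, 114047282 to 114053548), had 0, 9281 and 12284 counts in replicates 1, 2 and 3. Mb, the oxygen store myoglobin, had 0, 5717 and 8591 counts. Tnnt2, cardiac troponin T, had 2, 4338 and 6366 counts. Each was present in replicates 2 and 3 and higher in replicate 3, as were 31 of the 35 muscle genes. Myl2 and Myl3, the ventricular myosin light chains, had ratios of 0.586 and 0.633, and Pln, the cardiac regulator of the calcium pump, had 0.697. The 12 sarcomere genes summed to 365 and 533 CPM (ratio 0.685), the 3 calcium-handling genes Pln, Casq2 and Trdn gave 0.688, and Mb with the mitochondrial creatine kinase Ckmt2 gave 0.660. The members from the heart list gave 0.692 (0.680 to 0.704, 7 genes) and those from the skeletal muscle list 0.664 (0.648 to 0.680, 12 genes). Genes of the second list such as Mb, Myh7, Casq2, Csrp3 and Myoz2 are expressed in the heart as well. Some genes known mainly from fast skeletal fibres were near 0 in replicates 2 and 3. Myh4, a fast myosin, had 0 and 0 counts there, Tnnt3, a fast troponin, 16 and 20, Myl1 18 and 20 and Casq1 14 and 17. Others were not near 0, but the untreated libraries held them too. Tnni2, another fast troponin, stood at 12.6 and 12.3 CPM there and at 37.0, 41.0 and 37.4 CPM untreated. Myoz1 stood at 4.29 and 4.31 CPM there and at 3.22, 3.46 and 3.10 CPM untreated. The 4 genes above 1 were low, with Hand2os1, a cardiac long non-coding RNA, at 1.20 and 1.05 CPM, Myl7, the atrial light chain, at 1.24 and 1.17 CPM, the non-coding RNA Mhrt at 1.24 and 1.18 CPM and the RNA-binding protein gene Rbm24 at 1.83 and 1.77 CPM. Mhrt and Hand2os1 are antisense neighbours of Myh7 and Hand2, and their values are uncertain because the sources used here do not state whether counting used the strand.

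Stomach genes did not share one ratio, even within a cell kind, and the single ratio for the organ hides this. Gkn1, a gastrokine of surface mucous cells, had 0, 7231 and 11797 counts in GB2-treated replicates 1, 2 and 3. Tff1, the trefoil peptide of the same cells, had 0, 2985 and 13195 counts. Chia1, an acidic chitinase secreted by chief cells of the mouse stomach, had 0, 8266 and 228 counts. The first pair was therefore higher in replicate 3 and Chia1 higher in replicate 2. Psca and Muc5ac, a surface antigen and the main surface mucin, stood at 0.999 and 0.933. Atp4b, a subunit of the acid pump of parietal cells, had 0, 1484 and 156 counts, and Tff2, a trefoil peptide of mucous neck cells, 0, 389 and 2007. Gene by gene, the ratio ran from 0.194 for Tff2 to 36.2 for Chia1.

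Gastric genes outside the rule, looked at after the members' values were known, also differed widely in their ratio of replicate 2 to replicate 3. Pgc, the pepsinogen gene of chief cells, had 0, 0 and 4 counts in the untreated replicates and so missed the rule, with 0, 58562 and 2213 counts in GB2-treated replicates 1, 2 and 3. At 632 FPKM in replicate 2 it exceeded Alb on the length-scaled level. Cblif, gastric intrinsic factor, had 0, 975 and 18 counts and missed the rule at 0.287 CPM in replicate 3. With the members included, the 4 chief cell genes together gave a ratio of 27.5 (26.4 to 28.6), the parietal genes Atp4a and Atp4b 9.96 (singly 10.2 and 9.50) and the 5 surface genes 0.521 (0.512 to 0.531). Muc6, a gland mucin, gave 21.6 although Tff2 gave 0.194. The gastrokine gene Gkn3, at only 49 and 21 counts in replicates 2 and 3, gave 2.33 although Gkn2 gave 0.649.

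Of the 18 intestine members, 17 were higher in GB2-treated replicate 2. Lypd8, a secreted protein of the colon epithelium, had 0, 2741 and 626 counts in replicates 1, 2 and 3. Muc3, a membrane mucin, had 0, 1815 and 337 counts, and Reg3b, an antimicrobial lectin, had 0, 1460 and 200. Among enterocyte genes, Sis, sucrase-isomaltase, had 0, 777 and 335 counts and Fabp2, the intestinal fatty acid carrier, 0, 990 and 504, while Alpi, intestinal alkaline phosphatase, outside the rule, had 0, 177 and 32, a ratio of 5.53. Fabp6, the ileal bile acid carrier, was the only one of 18 below 1, with 0, 437 and 513 counts. Fabp1, which liver and intestine share, had 0, 965 and 935 counts, a ratio of 1.03. Car1, a carbonic anhydrase of the colon, showed the widest gap but missed the rule, with 0, 4389 and 12 counts in replicates 1, 2 and 3 and 0 in all untreated libraries. Over the whole intestine list, 58 of 83 genes were higher in replicate 2 and 25 were lower. The 11 defensin genes of Paneth cells, all outside the rule, were each lower in replicate 2, with summed counts of 0, 158 and 388 in replicates 1, 2 and 3 (ratio 0.407), and are near copies whose reads may be shared. Lgals2, a galectin outside the rule, had 0, 311 and 1058 counts, a ratio of 0.294. Goblet cell genes did not keep one proportion, since Muc2 gave 8.86 and Fcgbp 0.397 (both with a few untreated counts and so outside the rule).

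**Figure D3:**
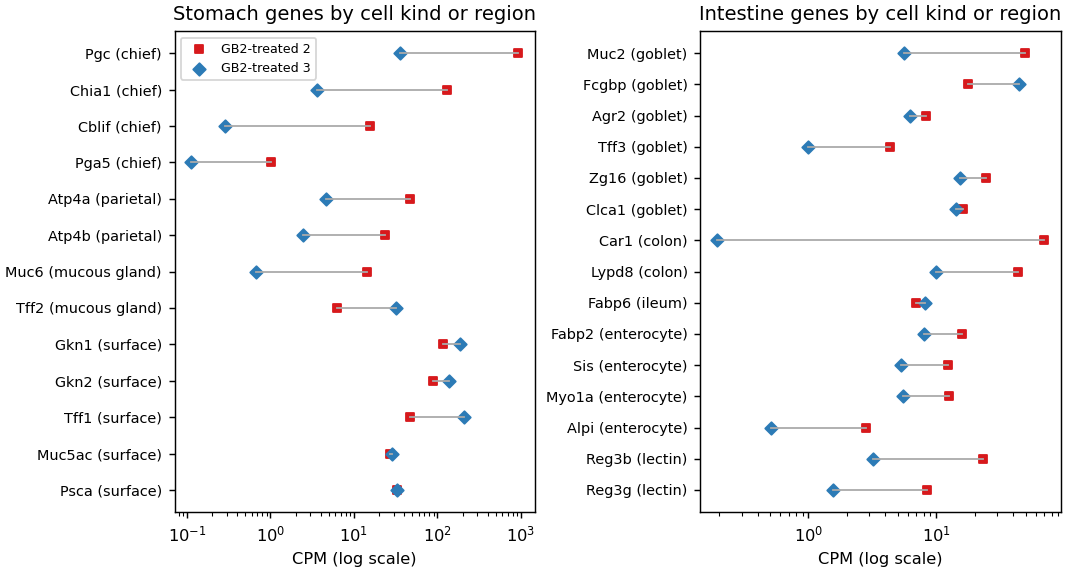
CPM (log scale) in GB2-treated replicate 2 (red squares) and replicate 3 (blue diamonds) of stomach and intestine genes, members and non-members, with the cell kind or region each is known from. Chief and parietal cell genes stand higher in replicate 2 (Pgc at 934 against 35.3 CPM), surface cell genes stand level or higher in replicate 3 (Tff1 at 47.6 against 211 CPM), and Car1 spans 70.0 to 0.192 CPM.

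Clps, the colipase that anchors pancreatic lipase to fat droplets (chromosome 17, 28558149 to 28560766), had 0, 8631 and 399 counts in GB2-treated replicates 1, 2 and 3. Dmbt1, a secreted scavenger receptor listed with the pancreas and also made by other epithelia, had 0, 1716 and 466 counts. The pancreatic phospholipase gene Pla2g1b, outside the rule with 0, 11 and 9 untreated counts, had 0, 5544 and 180. All were higher in replicate 2, by 21.6, 3.68 and 30.8 times. Of the 54 exocrine pancreas genes listed, 25 were in the table and the rest were not analysed here.

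The 5 imprinted genes, which are expressed from one parental copy and are abundant in fetal tissues, gave a ratio of 0.612 (0.587 to 0.639). H19, a long non-coding RNA, had 0, 1382 and 2388 counts in GB2-treated replicates 1, 2 and 3. Igf2, the fetal insulin-like growth factor next to it, had 0, 1073 and 1641 counts, and Plagl1 had 8, 534 and 1008. Peg10 gave 0.650, while Magel2, at 2.81 and 2.52 CPM, gave 1.11. Among the genes on other lists, Igha, the heavy chain of IgA, had 0, 504 and 675 counts and Cnn1, a smooth muscle calponin, 0, 219 and 352. Genes known from several organs were low, with Hjv, the iron regulator hemojuvelin of liver and muscle, at 3.56 and 4.82 CPM and Aqp8, a water channel of liver, pancreas and colon, at 4.46 and 3.41 CPM. Of the unassigned genes a second gene model of Nnt (ENSMUSG00000116207), the mitochondrial transhydrogenase, was highest at 9.84 and 4.07 CPM, a value that is uncertain where 2 models share reads.

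The rule cannot choose genes that the untreated libraries hold at even 1 count, so organ genes outside it were read for comparison. Among the listed genes, 97 were at 5 CPM or more in GB2-treated replicate 2 or 3 and below 1/20 of that in untreated cells, a limit set after their values were seen. The 34 liver genes among them had a ratio of 1.03 (1.02 to 1.04), led by Trf, transferrin, at 7.36, 8.66 and 7.34 CPM untreated and 5.96, 201 and 199.8 CPM treated. The 20 muscle genes gave 0.707 (0.698 to 0.716) and all lay below 1, led by Myh6, the cardiac myosin heavy chain, with 2, 0 and 0 untreated counts and 0, 20673 and 28062 treated counts. Of other cell types, 6 endothelial genes gave 0.680 (0.650 to 0.712), and Pecam1 stood at 1.69, 19.6 and 28.0 CPM in treated replicates 1, 2 and 3. The 4 globin genes gave 1.00 (0.964 to 1.04), and Hbb-bs, a beta-globin, stood at 1.24, 38.8 and 41.1 CPM there and at 1.08, 1.47 and 0.905 CPM untreated. For liver and muscle the non-members thus lay near the members' ratios of 1.04 and 0.683. For the other organs they did not, with 6.19 for 5 stomach genes (members 0.752), 1.81 for 11 intestine genes (members 2.60) and 6.24 for 3 pancreas genes (members 11.9), and all 97 genes together gave 1.33 (members 0.978). In replicate 1, all 97 genes were more than 5 times lower than their higher value in replicates 2 and 3.

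Kidney genes were held by the untreated libraries too. None of the 58 kidney genes in the table was at 0 in all untreated libraries, so none could be chosen, and 30 reached 1 CPM in every untreated library. They summed to 651, 636 and 626 CPM untreated and 867, 1147 and 1024 CPM in GB2-treated replicates 1, 2 and 3. Kap, a kidney androgen-regulated protein, stood at 39.7, 28.1 and 53.2 CPM untreated and 68.5, 169 and 126 CPM treated. Slc34a1, the phosphate carrier of the proximal tubule, stood at 18.1, 14.7 and 15.8 CPM untreated and 22.1, 47.6 and 41.6 CPM treated. Umod, uromodulin of the thick ascending limb, stood at 21.6, 17.3 and 15.9 CPM untreated and 17.4, 33.2 and 26.8 CPM treated. Replicates 2 and 3 were highest for each of these genes, and all 6 libraries held them. Over the list, 45 of 58 genes exceeded every untreated value in both replicates 2 and 3 and 13 did not. Fxyd2, a sodium pump subunit and the most abundant on the list, stood at 296, 307 and 287 CPM untreated and 487, 454 and 454 CPM treated, highest in replicate 1, and Napsa, the protease napsin A, stood at 122, 131 and 121 CPM untreated and 109, 103 and 108 CPM treated. The T and NK cell list summed to 25.9 to 29.8 CPM and the melanocyte list to 1.63 to 2.73 CPM over the 6 libraries, and neither held a member.

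**Figure D4:**
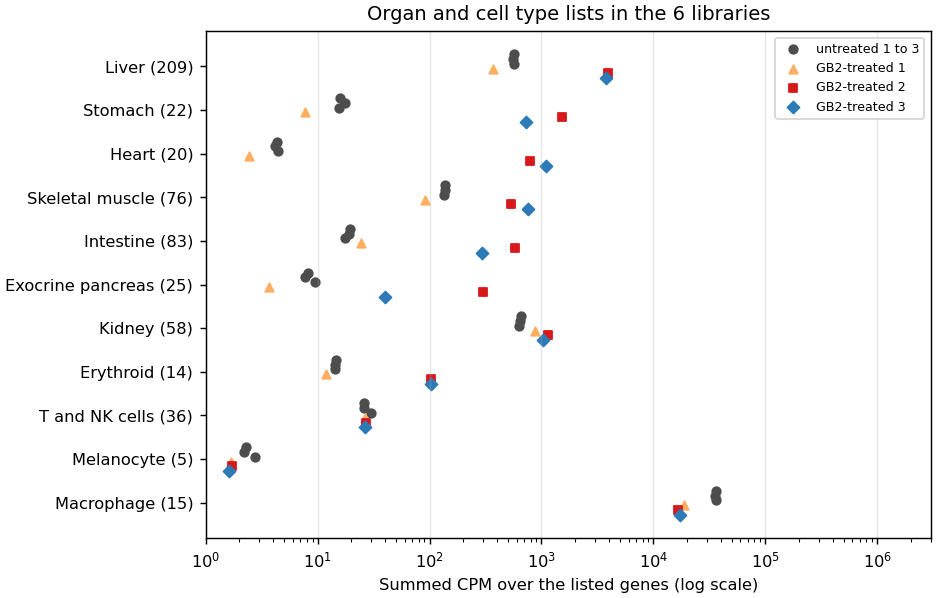
Summed CPM (log scale) over organ and cell type lists in each library, with untreated replicates as grey circles, GB2-treated replicate 1 as orange triangles, replicate 2 as red squares and replicate 3 as blue diamonds, and the number of listed genes in the table in parentheses. The stomach list stands at 15.5 to 17.4 CPM untreated, 7.76 in GB2-treated replicate 1, and 1531 and 731 CPM in replicates 2 and 3, while the kidney list lies between 626 and 1147 CPM in all libraries.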

How the data were processed

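Poly(A) RNA of RAW264.7 cells was sequenced by the submitters as strand-marked paired-end libraries, 3 untreated and 3 GB2-treated. Their processing notes list mm10 together with cutadapt (1.9), HISAT2 (2.2.1) and StringTie (2.1.6), in no stated order. The authors deposited one table with an estimated count and an FPKM value for each gene and library. The deposited estimated counts were whole numbers, often multiples of 4. The authors computed FPKM from reads, gene length and depth.

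From the counts, CPM was computed over the column total of each library. Ratios of GB2-treated replicate 2 to replicate 3 carry 95% exact (Clopper-Pearson) intervals, which cover counting error only. Libraries were compared across all genes with edgeR 4.0.16 (TMM, filterByExpr, quasi-likelihood test, FDR 0.05, log2 change of at least 1), tested on simulated data. Replicates shared only a number, and no pair of libraries agreed within sampling noise. DESeq2 1.42.0 was an alternative. Organ lists (32 lists, 1215 genes) came from general knowledge. The members and lists were chosen with earlier results of these data known. Named genes were Alb, Ahsg and Serpina3k, up to 6 genes per origin by mean CPM, the 10 highest in GB2-treated replicate 1, the 5 highest and 5 lowest ratios, and 5 genes on each side of the threshold. Other named genes, among them the role groups of liver and muscle and all genes outside the rule, were chosen after their values were seen. Promoter windows came from RefSeq (GRCm38.p6), and protein lengths were not analysed here.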

Additional observations from a re-analysis of the deposited data

How the results depend on the processing

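The number of genes chosen was 218, and 319, 157, 220, 266 and 227 with a minimum of 0.5 CPM, a minimum of 2 CPM, TMM library sizes, up to 4 untreated counts and an FPKM rule. The ratio over all members was 1.01 with TMM sizes, against 0.978, and 0.970 with summed FPKM, 0.970 without Alb, 0.912 for genes of at least 5 CPM and 0.997 as the median of gene ratios, so its side of 1 depended on the scaling. With TMM sizes the ratio was 1.07 for liver, 1.11 for Mup genes, 0.706 for muscle, 0.777 for stomach and 2.69 for intestine. Without the gene of highest CPM these were 1.06, 1.24, 0.662, 0.818 and 2.38. As medians of gene ratios, Mup genes gave 0.959, on the other side of 1, muscle 0.704, stomach 0.718 and intestine 2.31. For genes of at least 5 CPM in both, stomach gave 0.490 and intestine 2.27, and with summed FPKM 0.541 and 1.97. With only listed genes, an alternative chosen after seeing the data, Mup genes gave 1.05, stomach 0.768 and intestine 2.44. The causes of these shifts were not tested. Liver, muscle, stomach and intestine kept their side of 1 under all of these scalings and subsets of the 218 genes. Their ratios were not computed under the alternative rules for choosing genes. The rule with up to 4 untreated counts would add the stomach genes Pgc (934 and 35.3 CPM in replicates 2 and 3) and Gkn2 (88.8 and 137 CPM). The 13 stomach members summed to only 444 and 590 CPM, less in replicate 2 than Pgc alone. All 22 stomach genes of the list in the table summed to 1531 and 731 CPM, higher in replicate 2. The stomach side of 1 therefore depended on which genes were chosen.

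Across all genes, leaving out 1 library gave 1486 to 3728 genes called higher, against 2300, and 3 to 218 members called higher, against 3. The highest values came without GB2-treated replicate 1 and the lowest gene count without untreated replicate 2 (1519 without untreated replicate 1), and leaving out any one untreated library gave 9 members. Without both GB2-treated replicates 2 and 3 it was 1432 genes, with 1 member, the lone treated library being assumed to vary like the others. Members called higher numbered 16 without the filter (6.87% of all genes), 193 by DESeq2's Wald test (14.1%) and 1 with counts divided by 4. With the replicate number as a block, 1776 genes were called higher and 1264 lower, with 3 members. Deviations of same-numbered libraries correlated at 0.01 to 0.05, so the numbers were not taken as pairs. One count was worth 0.0160 CPM in GB2-treated replicate 3, and a ratio of 2 libraries has no replicate check.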
